A study of Mus musculus with 8 samples.

Results

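Ribosome biogenesis and its regulator Myc were examined through a list of 40 genes in murine lung group 2 innate lymphoid cells (ILC2s). The list is one of gene symbols, and the rule used no difference between the groups. Its genes, and the lists of other genes below, were however chosen with earlier results of these data known. A gene was kept where at least 10 reads were counted in 4 or more libraries. All 40 were found among the 23183 genes listed in the count tables, and all 40 passed, as did 12294 genes of the whole series in all. One of them, Utp4, was listed under its older symbol Cirh1a. The least abundant member, Mycn, had 63 to 137 counts per library. By role, 3 genes belong to the Myc family, 4 to RNA polymerase I and its initiation factors and 6 to a nucleolar scaffold group. Nucleolar scaffold is only a label here, for Ncl, Npm1, Nolc1, Gnl3, Ddx21 and Mybbp1a, nucleolar proteins of several functions. Box C/D and box H/ACA small nucleolar ribonucleoproteins (snoRNPs) have 4 genes each. Assembly of the small ribosomal subunit has 11 and assembly of the large one 8.

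The cells were ILC2s of C57BL/6 mice (wild-type C57BL/6 J in the study's methods), enriched from the lungs of animals that had received IL-33 and cultured with IL-2, IL-7 and IL-33 at 10 ng/mL each. The mice of the study were 6 to 10 weeks old. Of 8 cultures, 4 received Yoda1, a chemical agonist of the mechanosensitive cation channel Piezo1, at 5 µM, and 4 received the vehicle DMSO at 0.1%, and RNA was taken after 3 h of Yoda1. Both groups therefore carried the cytokines, IL-33 included, and no untreated cells were among the 8 samples. Whether the 4 libraries of a group came from separate mice or from cultures of one pool is not stated, so p-values measure only the spread between these libraries, which may be technical. The comparison asked which transcripts of the ribosome assembly line differed after 3 h of Piezo1 agonism.

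Ribosomes are built in the nucleolus. RNA polymerase I transcribes the ribosomal DNA, snoRNPs guide the chemical modification of the precursor RNA, and large sets of assembly factors fold and cut it into the small and the large subunit. Myc, a transcription factor that binds E-box DNA as a dimer with Max, is known to drive genes of nearly every one of these steps and to rise when lymphocytes are stimulated to grow.

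The canonical E-box CACGTG is its own reverse complement, so that a match on one strand is a match on both. It was searched in the RefSeq promoter windows of build GRCm38.p6, which run from 250 bases before to 50 bases after a transcript's start. Of the 40 members 33 had a window, and 9 of these held the motif. Of the 41 windows of members 21.95% held it, against 7.15% of all 32851 windows and 9.89% of the 11913 windows of genes with at least 10 counts in 4 or more libraries. The 10 matches are printed because CACGTG is the sequence that dimers of Myc and Max are known to bind. A match is a description and not a measured binding site. They were chosen after the fold changes had been seen. Capitals mark the motif, up to 12 bases stand on each side of it within the window, and each sequence runs 5′ to 3′ on the gene's own strand. Motif positions are counted from the start, whose first transcribed base is 1.
Nop2, chr6:125131811-125131840, plus strand, motif from -60: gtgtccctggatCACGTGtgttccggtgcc
Utp4, chr8:106893643-106893672, plus strand, motif from 16: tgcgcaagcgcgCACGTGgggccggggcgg
Ltv1, chr10:13193092-13193121, minus strand, motif from 29: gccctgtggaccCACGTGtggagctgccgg
Utp20, chr10:88826765-88826789, minus strand, motif from 38: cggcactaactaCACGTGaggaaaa
Pes1, chr11:3963965-3963994, plus strand, motif from 3: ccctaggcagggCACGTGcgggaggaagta
Mybbp1a, chr11:72441355-72441376, plus strand, motif from 41: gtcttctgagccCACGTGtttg
Max, chr12:76962234-76962263, minus strand, motif from -3: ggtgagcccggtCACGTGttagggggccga
Rrn3, chr16:13780472-13780501, plus strand, motif from -215: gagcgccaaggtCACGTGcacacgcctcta
Rrn3, chr16:13780639-13780668, plus strand, motif from -48: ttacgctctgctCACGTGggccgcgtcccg
Wdr43, chr17:71616220-71616249, plus strand, motif from 18: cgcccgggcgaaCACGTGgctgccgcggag
Rrn3 held 2 matches and the other 8 genes 1 each. The members that are not in the promoter table are Myc, Npm1, Fbl, Nol6, Rrp12, Bop1 and Rrs1.

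Total counts per library ran from 12438009 to 19534653 and overlapped between the groups. Levels are given as CPM, the counts as a share of a library total that was set to a common size with trimmed mean of M-values (TMM) factors. These lay between 1 and 1.01 in DMSO and between 0.988 and 0.997 in Yoda1, so they parted by group. The median log2 fold change of the members was 0.045 with these factors and 0.023 with library size alone. Of 12 ILC2 markers all were found, led by Il13 at 5230 to 6830 CPM and Il2ra at 3390 to 3870 CPM, and Gata3 stood at 543 to 602 CPM. The ILC2 markers summed to 17710 to 18240 CPM in DMSO libraries and to 19820 to 20210 CPM in Yoda1 libraries. By the edgeR test described below 6 of the 12 rose (Il1rl1, Thy1, Il13, Il5, Areg and Ptprc), where 6.04% of all genes did. Il13, the most abundant, had a log2 fold change of 0.30. The markers that did not pass were Gata3 (0.00020), Id2 (-0.023), Klrg1 (0.027), Rora (0.034), Il2ra (0.086) and Il7r (0.11). Markers of other cells were far lower. The 5 T cell markers summed to 69.0 to 76.8 CPM in DMSO and 74.2 to 84.2 CPM in Yoda1, and the 3 NK cell markers to 46.7 to 49.5 and 50.04 to 56.0 CPM, where Eomes rose. Summed levels of the 3 B cell markers did not exceed 0.365 CPM in any library, those of the 3 ILC3 markers 1.58 CPM, those of the 4 macrophage markers 3.92 CPM and those of the 4 mast cell or basophil markers 5.48 CPM. The 4 epithelial or stromal markers summed to 213 to 227 CPM in DMSO and 218 to 223 CPM in Yoda1, nearly all of it Pecam1, and Sftpc was at 0 in every library. The part of these marker levels in the results below was not tested.

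Libraries differed in how gene levels went with transcript length. In DMSO library 1 the deviation of a gene's log2 CPM from the mean of its group fell with transcript length across the 40 members (Spearman rho = -0.57) and across 11780 genes with a known length (rho = -0.39). Yoda1 library 3 did the same (rho = -0.40 and -0.27). In the other libraries rho lay between -0.15 and 0.35 over the members and between -0.063 and 0.28 over all genes, where Yoda1 library 2 (0.28) and DMSO library 3 (0.26) were as far from 0 on the other side as Yoda1 library 3. The genes of one library share its preparation and depth, so these are descriptions and carry no p. With 1 library of falling levels in each group, results were also computed without both, an alternative chosen after seeing the data.

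The groups were set against each other with the quasi-likelihood test of edgeR, run on 12239 genes with enough counts, and p-values were adjusted over all of them by the Benjamini-Hochberg method. A gene was called changed at an adjusted p under 0.05. Of the 40 members 2 changed, which is 5% of them, where 10.9% of all genes tested changed. Gnl3, which encodes the nucleolar GTP-binding protein nucleostemin, rose, and 6.04% of all genes rose. Ubtf, which encodes the upstream binding factor of RNA polymerase I, fell, and 4.84% of all genes fell. Myc was among the 38 members that did not pass the test. Over all genes 739 rose and 592 fell, a split that became 505 and 958 with upper-quartile factors and 553 and 809 with library size alone. In bulk RNA, fewer cells of a type and less RNA per cell cannot be told apart.

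At an unadjusted p under 0.05 stood 8 of the 40 members (20%), against 25.3% of all genes tested. In 4 members (10%) the 4 Yoda1 libraries did not overlap the 4 DMSO libraries, and this was so for 15.5% of all genes. These were Gnl3, Ddx21 and Ddx10, higher with Yoda1, and Ubtf, lower. The log2 fold changes of the members ran from -0.13 (Wdr12) to 0.18 (Gnl3), and the median of their absolute values was 0.053, beside 0.085 over all genes. The members were also measured more precisely than most genes, with a median standard error (SE) of 0.043 on the log2 scale against 0.066. Their 95% confidence intervals together spanned -0.24 to 0.33 on the log2 scale.

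**Figure D1:**
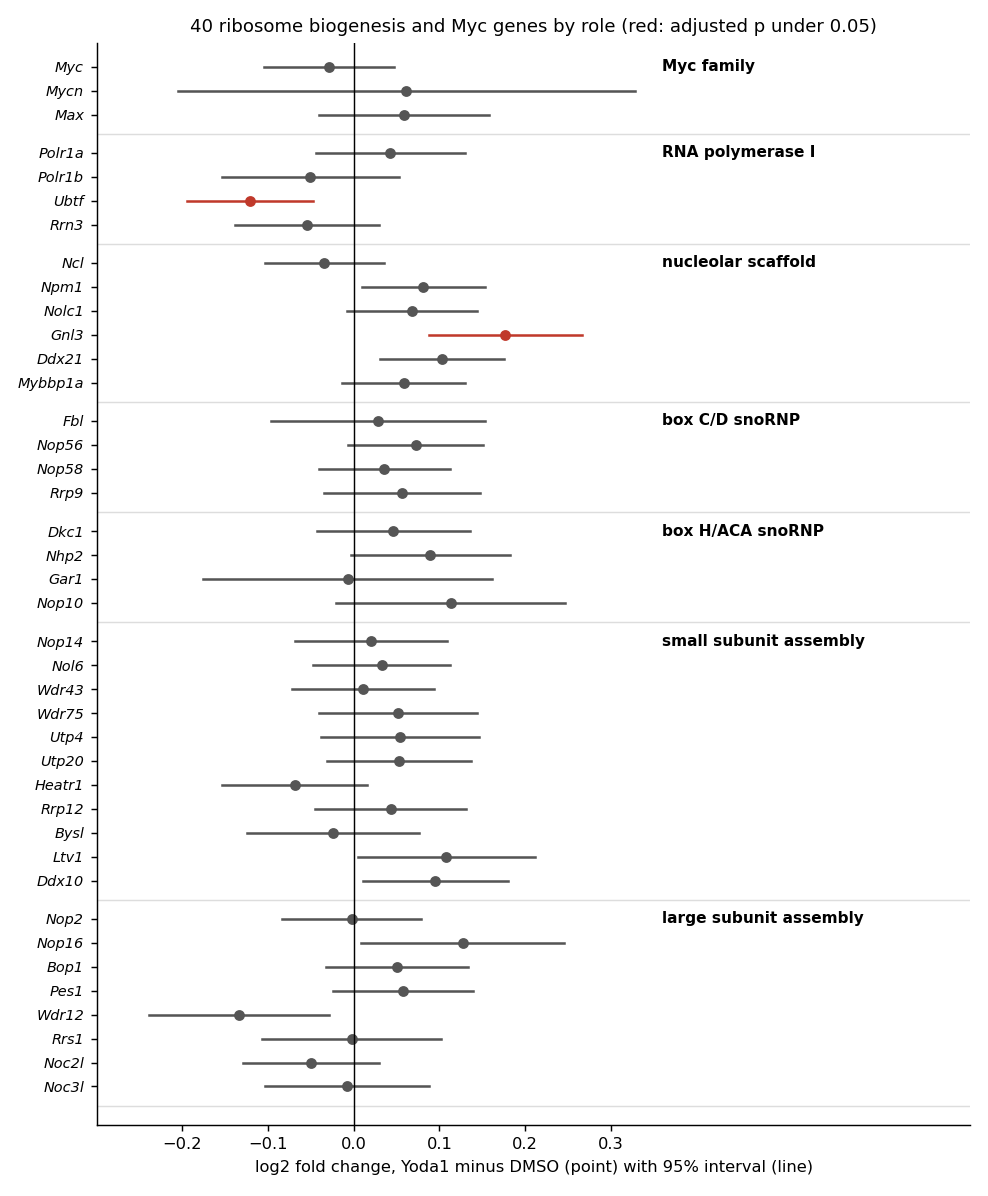
Log2 fold change of each of the 40 genes, Yoda1 minus DMSO, with its 95% confidence interval from the edgeR fit (n = 4 libraries per group), grouped by role. Only Ubtf (-0.12) and Gnl3 (0.18), drawn in red, passed an adjusted p of 0.05, and the interval of Mycn is the widest.

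Myc was abundant in both groups. Its level was 213, 227, 209 and 220 CPM in DMSO libraries 1 to 4 and 213, 215, 204 and 220 CPM in Yoda1 libraries 1 to 4. The groups overlapped throughout, with means of 217 ± 7.70 (SD, n = 4) and 213 ± 6.80 CPM (SD, n = 4). The log2 fold change was -0.029 with a 95% interval of -0.10 to 0.048 (edgeR, adjusted p = 0.692). Mycn, the Myc paralog best known from the embryo and from neuroblastoma, was the lowest of the set at 6.26, 5.37, 7.10 and 7.39 CPM in DMSO and 5.09, 6.64, 8.10 and 7.05 CPM in Yoda1. Its interval was wide, -0.21 to 0.33 around 0.061, and at this depth no difference was detectable (edgeR, adjusted p = 0.824). Its sign turned when DMSO library 2 (-0.030) or Yoda1 library 3 (-0.023) was left out. Max, the partner that every Myc dimer needs, was 55.2, 57.2, 57.4 and 50.6 CPM in DMSO and 56.7, 56.6, 59.2 and 57.6 CPM in Yoda1. Only DMSO library 4 lay clearly below the rest, and the log2 fold change of Max was 0.058 (SE 0.048, edgeR adjusted p = 0.491).

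**Figure D2:**
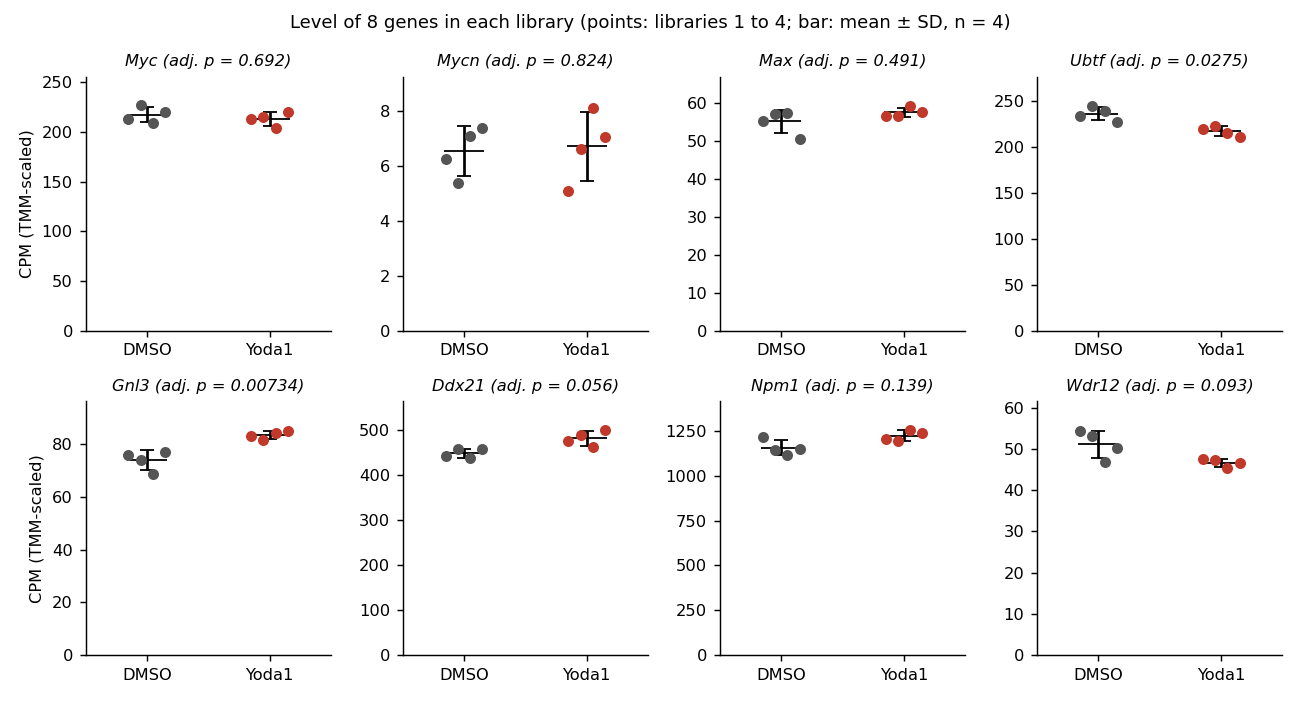
Level of 8 members in each library in CPM, on axes that start at 0, with DMSO in grey and Yoda1 in red; bars give the mean ± SD of 4 libraries. The groups overlap for Myc, Mycn, Max, Npm1 and Wdr12, and part for Ubtf, Gnl3 and Ddx21.

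RNA polymerase I and its initiation factors contained the only member that fell. Ubtf, which binds the promoter of the ribosomal RNA genes, was 234, 245, 239 and 228 CPM in DMSO and 220, 223, 215 and 211 CPM in Yoda1. Every Yoda1 library lay below every DMSO library, yet the step from the highest Yoda1 value to the lowest DMSO value was small. The log2 fold change was -0.12 (SE 0.036, edgeR adjusted p = 0.0275), a fold of 0.920. No exon of another gene overlaps Ubtf (chr11:102304560-102319742, minus strand, GRCm38). The direction of Ubtf held in all 18 alternatives and the call in 12 of them, over which the adjusted p ran from 0.00553 to 0.118. The call was lost without DMSO library 2 (adjusted p = 0.114), DMSO library 3 (0.066), Yoda1 library 1 (0.0557), Yoda1 library 3 (0.0612) or Yoda1 library 4 (0.118).

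The other 3 genes of this role did not pass. Rrn3, the factor that brings the polymerase to its promoter, was among the steadiest members in DMSO at 85.1 ± 0.753 CPM (SD, n = 4) and stood at 81.9 ± 2.52 CPM in Yoda1 (log2 fold change -0.055, SE 0.041, edgeR adjusted p = 0.437). Polr1a, the largest subunit of the enzyme, was 128 ± 8.29 and 131 ± 2.71 CPM, and its value in DMSO library 1 (117 CPM) lay below the other 7. Polr1b, the second large subunit, was 55.2 ± 1.83 and 53.3 ± 3.49 CPM. Their log2 fold changes were 0.043 for Polr1a and -0.051 for Polr1b, and 3 of the 4 members of the role lay below 0.

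The group labelled nucleolar scaffold held the other change. Gnl3 was 76.0, 74.2, 68.7 and 76.9 CPM in DMSO and 83.2, 81.8, 84.3 and 85.1 CPM in Yoda1. The lowest Yoda1 library was above the highest DMSO library, and DMSO library 3 was the lowest of all. Its log2 fold change was 0.18 (SE 0.044, edgeR adjusted p = 0.00734), a fold of 1.13. Gnl3 was called in all 18 alternatives, with an adjusted p between 0.00301 and 0.0447. Exons of Gnl3 (chr14:31012433-31019152, minus strand, GRCm38) overlap exons of Pbrm1 on the other strand, and the strand setting of the counting is not stated. Pbrm1 itself was 142 ± 8.14 CPM in DMSO and 144 ± 7.51 CPM in Yoda1 (SD, n = 4, log2 fold change 0.014, edgeR adjusted p = 0.880).

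Ddx21, a nucleolar RNA helicase that acts in ribosomal RNA transcription and processing, was just outside the threshold. It was 440, 457, 438 and 456 CPM in DMSO and 476, 489, 461 and 499 CPM in Yoda1. The groups did not overlap, although Yoda1 library 3 came within a few CPM of the DMSO libraries (log2 fold change 0.10, SE 0.035, edgeR adjusted p = 0.056). The call of Ddx21 was gained with DESeq2 (adjusted p = 0.0325), with no filter on low counts (0.0491), without Yoda1 library 3 (0.0289) and without both that library and DMSO library 1 (0.0227). Npm1, the nucleophosmin that fills the outer layer of the nucleolus, was 1214, 1144, 1117 and 1152 CPM in DMSO and 1206, 1193, 1256 and 1240 CPM in Yoda1. DMSO library 1 alone reached into the Yoda1 range, and the log2 fold change was 0.081 (SE 0.035, edgeR adjusted p = 0.139). Without DMSO library 1 it was 0.10 with an adjusted p of 0.0344. Sequences of 8 annotated pseudogenes match the Npm1 transcript over at least 200 bases at 90% identity or more, so its reads may be split between copies.

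Ncl, encoding nucleolin, had the highest CPM of the set and leaned the other way, with 1361, 1358, 1299 and 1306 CPM in DMSO and 1292, 1314, 1332 and 1262 CPM in Yoda1 (log2 fold change -0.034, edgeR adjusted p = 0.580). The groups overlapped for most libraries. Nolc1, a chaperone of snoRNPs, was 163 to 171 CPM in DMSO and 168 to 181 CPM in Yoda1, and Mybbp1a, a nucleolar Myb-binding protein, 318 to 341 and 335 to 352 CPM. Their log2 fold changes were 0.068 and 0.058, and neither passed. Of the 6 genes labelled nucleolar scaffold 5 lay above 0, with a median of 0.075 on the log2 scale, and 1 rose. Over all genes tested 48.4% lay above 0 and 6.04% rose, and counts over 6 genes say little.

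None of the 8 genes of snoRNP proteins passed the edgeR test, and none did at an unadjusted p under 0.05. Of all genes tested 10.9% and 25.3% did, and with 8 genes a count of 0 says little. Box C/D particles include those that methylate ribosomal RNA. All 4 box C/D members lay above 0, from 0.028 (Fbl) to 0.073 (Nop56) on the log2 scale, although Fbl turned to -0.0025 with upper-quartile factors. Fbl, the methyltransferase, was uneven in both groups. It was 142, 146, 134 and 126 CPM in DMSO and 138, 140, 156 and 126 CPM in Yoda1, with the highest value in Yoda1 library 3. Nop56, a scaffold of box C/D particles, was 155 to 164 CPM in DMSO and 158 to 175 CPM in Yoda1. Its partner Nop58 was 167 to 178 CPM in DMSO and 169 to 182 CPM in Yoda1, and Rrp9, which binds the U3 snoRNA, 59.9 to 62.9 and 61.8 to 65.1 CPM.

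Box H/ACA particles convert uridines of ribosomal RNA to pseudouridine. Dkc1, the pseudouridine synthase, was 115 ± 5.22 CPM in DMSO and 119 ± 6.80 CPM in Yoda1 (SD, n = 4), and the core protein Nhp2 was 80.8 ± 4.52 and 86.2 ± 3.46 CPM. Gar1 had a mean of 67.6 CPM in both groups and was among the most variable members, from 60.9 to 76.7 CPM in DMSO and from 59.5 to 74.5 CPM in Yoda1. Its highest DMSO value was in library 1 and its highest Yoda1 value in library 3. Nop10, the smallest core protein, was 30.8, 30.9, 29.9 and 24.8 CPM in DMSO and 32.9, 31.1, 32.2 and 30.4 CPM in Yoda1 (log2 fold change 0.11, SE 0.066, edgeR adjusted p = 0.290). DMSO library 4 lay below the other 7. The median of the 4 genes was 0.068, and 3 of them lay above 0 (Gar1 at -0.0071 also turned above 0 with DESeq2).

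Small subunit assembly is the largest role, with 11 members, and none passed, where 10.9% of all genes did. Ddx10, an RNA helicase of the small subunit processome, was 81.5, 84.99, 79.9 and 86.8 CPM in DMSO and 90.4, 87.0, 89.8 and 88.8 CPM in Yoda1. The groups parted by the narrow gap between DMSO library 4 and Yoda1 library 2, and the log2 fold change was 0.096 (SE 0.042, edgeR adjusted p = 0.144). Ltv1, an assembly factor carried on late small subunit precursors, was 46.5, 48.4, 43.5 and 46.0 CPM in DMSO and 49.2, 47.6, 49.7 and 52.2 CPM in Yoda1, with DMSO library 2 inside the Yoda1 range (log2 fold change 0.11, SE 0.051, edgeR adjusted p = 0.177).

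Heatr1, Wdr43, Wdr75 and Utp4 belong to the complex that is the first to load on the nascent RNA, and among them only Heatr1 had a log2 fold change below 0. Heatr1 was 150, 169, 164 and 167 CPM in DMSO and 155, 162, 146 and 156 CPM in Yoda1 (log2 fold change -0.069, edgeR adjusted p = 0.311). Its lowest value in each group was in DMSO library 1 and Yoda1 library 3. Wdr43 (161 to 178 and 168 to 186 CPM), Wdr75 (68.2 to 75.5 and 72.01 to 78.8 CPM), Utp4 (55.6 to 59.3 and 58.7 to 60.7 CPM) and Utp20 of the same processome (116 to 127 and 117 to 130 CPM) had log2 fold changes from 0.011 to 0.054. Of the remaining processome and export factors, Nop14 (0.020), Nol6 (0.033) and Rrp12 (0.043) lay above 0 and Bysl (-0.024) below. In all 9 of the 11 lay above 0, where 48.4% of all genes tested did. Of the 9, Nop14 and Wdr43 turned below with upper-quartile factors or library size alone.

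Large subunit assembly gave the members' lowest log2 fold change and its second highest. Bop1, Pes1 and Wdr12 form one complex, PeBoW, which is needed to process the large subunit precursor RNA, and their transcripts did not lean one way. Wdr12 was 54.3, 53.2, 46.9 and 50.3 CPM in DMSO and 47.6, 47.2, 45.4 and 46.6 CPM in Yoda1. Its 4 Yoda1 values were close together and only DMSO library 3 reached into them (log2 fold change -0.13, SE 0.051, edgeR adjusted p = 0.093). Wdr12 was called without DMSO library 3 (adjusted p = 0.0359), under scaling by library size alone (0.0478) and under upper-quartile factors (0.0347). Bop1 was 111 ± 3.21 and 115 ± 4.47 CPM, and Pes1 110 ± 3.05 and 114 ± 3.87 CPM (SD, n = 4), with log2 fold changes of 0.050 and 0.058. The difference between these genes was not tested. Exons of all 3 overlap exons of a gene on the other strand.

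Nop16 was 45.2, 45.4, 38.2 and 43.6 CPM in DMSO and 45.3, 44.0, 48.4 and 50.5 CPM in Yoda1 (log2 fold change 0.13, SE 0.058, edgeR adjusted p = 0.165). Its groups overlapped, with DMSO library 3 lowest. None of the remaining 4 genes passed, and Nop2, Rrs1 and Noc3l were close to equal between the groups. Nop2, a methyltransferase of the large subunit RNA, was 126 ± 3.93 and 126 ± 4.88 CPM, and Rrs1, which helps to install the 5S particle, 60.6 ± 4.75 and 60.5 ± 1.75 CPM. Noc3l was 57.5 ± 1.88 and 57.2 ± 2.004 CPM. Noc2l was 117 ± 2.86 and 113 ± 2.83 CPM (log2 fold change -0.050, edgeR adjusted p = 0.458). Of the 8 genes 3 lay above 0 and the median was -0.0024, where Nop2 and Rrs1 turned above 0 with DESeq2.

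Read over the whole set, 27 of the 40 log2 fold changes (67.5%) lay above 0, against 48.4% of all genes tested. With upper-quartile factors 24 did, against 38.0% of all genes, and with library size alone 25, against 41.2%. The median was 0.045 for the members and -0.0053 for all genes. For the members it was 0.014 with upper-quartile factors (-0.036 for all genes), 0.023 with library size alone (-0.027 for all genes) and 0.027 without Yoda1 library 3. Each library's median deviation of the members from the DMSO mean, on the log2 scale, was 0.020, 0.020, -0.028 and -0.0046 in DMSO libraries 1 to 4 and 0.025, 0.021, 0.062 and 0.062 in Yoda1 libraries 1 to 4. Yoda1 libraries 3 and 4 were high, DMSO library 3 was low, and the remaining Yoda1 libraries sat beside DMSO libraries 1 and 2. The median over all genes moved by no more than 0.0053 in any library. Summed over the 40 genes, the level was 6870 ± 109 CPM in DMSO and 6998 ± 57.1 CPM in Yoda1 (SD, n = 4), or 0.673% to 0.697% and 0.694% to 0.706% of a library. Ncl (19.0%) and Npm1 (17.2%) made up much of that sum.

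**Figure D3:**
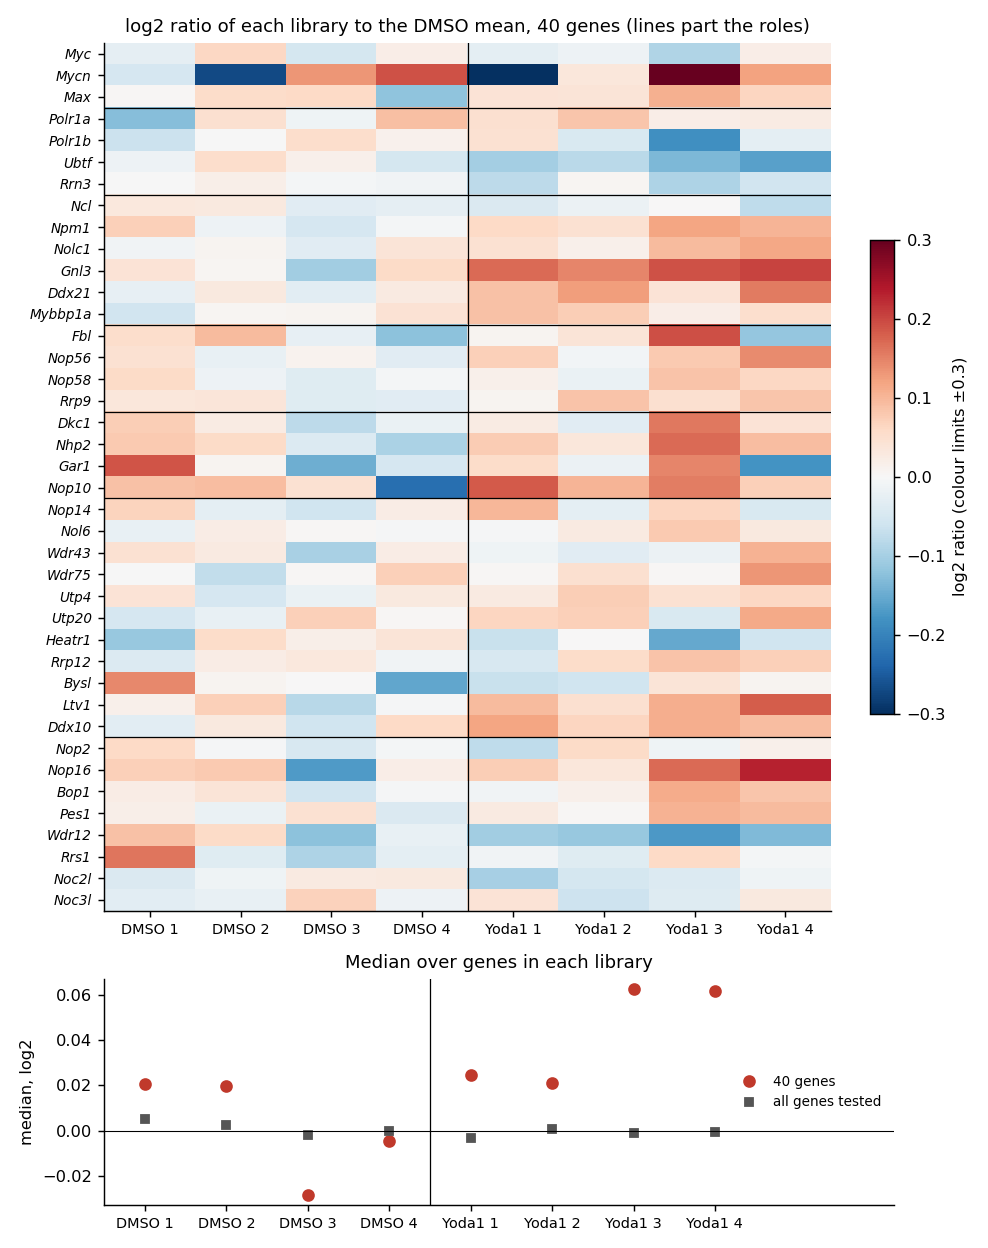
Top, log2 ratio of each library's CPM to the DMSO mean for the 40 genes, in rows parted by role, with colours limited to ±0.3, which Mycn alone exceeds. Bottom, the median of the log2 deviations in each library for the 40 genes (circles) and for all genes tested (squares). The members' medians run from -0.028 to 0.020 in DMSO and from 0.021 to 0.062 in Yoda1.

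Single libraries took many of the extremes. DMSO library 3 held the lowest value of 14 members and Yoda1 library 3 the highest of 11, followed by Yoda1 library 4 with 9. DMSO library 1 was highest for 6 members. The spread within a group was small, with a median coefficient of variation of 3.61% in DMSO and 3.48% in Yoda1 over the members, beside 6.24% and 5.96% over all genes. Across the 40 members the log2 fold change fell with transcript length, from Nhp2 at 1042 bases to Polr1a at 9216 bases (Spearman rho = -0.40). Across all genes with a length, rho was -0.030. Without DMSO library 1 and Yoda1 library 3, rho over the members was -0.39, the median log2 fold change 0.037 and the number of members called 3 (Gnl3, Ubtf and Ddx21). The members share libraries and a pathway, so this is a description, and the part of length in the fold changes was not tested.

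Levels between genes can be compared per length of transcript, though they depend on the transcript model chosen. Npm1 was at 1014 CPM per kilobase, above 99.2% of genes tested. Ncl (160), Nop56 (118), Myc (118), Fbl (116) and Ddx21 (98.4 CPM per kilobase) followed. On this scale Myc stood at the 94.7th percentile of all genes, Max at 29.2 CPM per kilobase at the 76.0th and Mycn at 2.55 CPM per kilobase at the 21.6th. Among the members of the polymerase I role Ubtf was the most abundant at 70.8 CPM per kilobase, with Rrn3 at 23.3, Polr1b at 16.0 and Polr1a at 14.0. Polymerase I genes outside the members ran from 6.74 to 150 CPM per kilobase. Among them Polr1c at 73.8 and Taf1d at 73.5, both described below, were close to Ubtf. The 9 members with an E-box in the promoter window, printed above, had a median log2 fold change of 0.054, from -0.055 (Rrn3) to 0.11 (Ltv1), and none was called. The 24 members whose window held no match had a median of 0.044 and included both called genes. No match says only that these letters are not in the window.

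Other genes of the pathway were followed in 8 lists of 185 genes, none of them a member, of which 184 had enough counts. Of these 10 changed (5.43%, beside 10.9% of all genes), 5 up and 5 down. The count of 10 became 17 without DMSO library 1, 5 without DMSO library 2, 6 without DMSO library 4 and 4 without Yoda1 library 4. In the other Myc network genes, 2 of 10 rose (20%, beside 6.04% of all genes called higher). Mlx, the partner shared by the Mondo and Mxd proteins, was 41.2 to 44.2 CPM in DMSO and 46.1 to 49.4 CPM in Yoda1, with no overlap (log2 fold change 0.18, SE 0.050, edgeR adjusted p = 0.0149). Mlxip, the Mondo protein that senses glucose metabolites, was 191 to 208 and 197 to 222 CPM (log2 fold change 0.12, edgeR adjusted p = 0.0485), a call that 11 of the 18 alternatives lost. Mlx lost its call without DMSO library 2 (adjusted p = 0.0518) or Yoda1 library 4 (0.0729), and Mlxip without any 1 library other than DMSO library 3 and Yoda1 library 3 (adjusted p from 0.0796 to 0.191). Among other RNA polymerase I genes 2 of 12 rose (16.7%, beside the same 6.04%). Polr1c, a subunit shared with RNA polymerase III, was 74.2, 76.2, 69.1 and 74.1 CPM in DMSO and 80.4, 81.4, 92.9 and 83.6 CPM in Yoda1 (log2 fold change 0.20, SE 0.048, edgeR adjusted p = 0.00483), and it was called in all 18 alternatives. Taf1d, a subunit of the polymerase I promoter factor SL1, was 71.8 to 76.4 and 78.6 to 88.6 CPM (log2 fold change 0.17, edgeR adjusted p = 0.0125), a call lost without DMSO library 2 (adjusted p = 0.0598) or Yoda1 library 4 (0.0875). The polymerase I genes thus held changes in both directions, with Ubtf down and Polr1c and Taf1d up.

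Of 22 RNA polymerase III genes 1 fell, Polr3gl, one of 2 alternative versions of a subunit, at 16.8 to 19.6 CPM in DMSO and 18.1 CPM in Yoda1 library 3 but 13.5 to 14.1 CPM in the other 3 Yoda1 libraries (log2 fold change -0.29, edgeR adjusted p = 0.0303). Of 43 other small subunit factors 1 rose, Pno1, at 54.9 to 65.4 and 63.1 to 71.8 CPM (log2 fold change 0.16, edgeR adjusted p = 0.049), and of 50 other large subunit factors 1 fell, Urb2, at 63.5 to 69.1 and 58.4 to 63.1 CPM (log2 fold change -0.15, edgeR adjusted p = 0.0372). Calls were lost in 7 of the 18 alternatives for Polr3gl, in 11 for Pno1 and in 7 for Urb2. Among these were DMSO libraries 2 and 4 and Yoda1 libraries 1, 2 and 4 for Polr3gl (adjusted p from 0.0518 to 0.136 without each), DMSO libraries 2, 3 and 4 and Yoda1 libraries 1, 3 and 4 for Pno1 (0.0841 to 0.213), and DMSO libraries 3 and 4 and Yoda1 libraries 3 and 4 for Urb2 (0.0858 to 0.128). By the edgeR test 0 of 9 snoRNP assembly factors and 0 of 14 RNA exosome genes changed, and 1 of each list had an unadjusted p under 0.05. Over all genes 10.9% were called (6.04% higher and 4.84% lower) and 25.3% had an unadjusted p under 0.05. Exons of 7 of the 10 changed genes overlap those of a gene on the other strand.

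Of 24 other Myc targets, genes outside ribosome assembly that Myc is known to drive, 3 fell (12.5%, beside 10.9% of all genes called in either direction and 4.84% called lower) and none rose. Slc7a5, the light chain of a transporter of large neutral amino acids, was 200, 209, 193 and 196 CPM in DMSO and 150, 173, 158 and 165 CPM in Yoda1. The highest Yoda1 library was well below the lowest DMSO library (log2 fold change -0.30, SE 0.042, edgeR adjusted p = 6.25e-06). Tfrc, the transferrin receptor, was 452 to 476 CPM in DMSO and 390 to 424 CPM in Yoda1 (log2 fold change -0.19, SE 0.036, edgeR adjusted p = 0.000505). Gart, an enzyme of purine synthesis, was 145 to 148 and 125 to 134 CPM (log2 fold change -0.16, SE 0.037, edgeR adjusted p = 0.0045). All 3 were called in all 18 alternatives. The median of the 24 genes was -0.020, and 7 of them had an unadjusted p under 0.05 (29.2%, beside 25.3% of all genes).

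**Figure D4:**
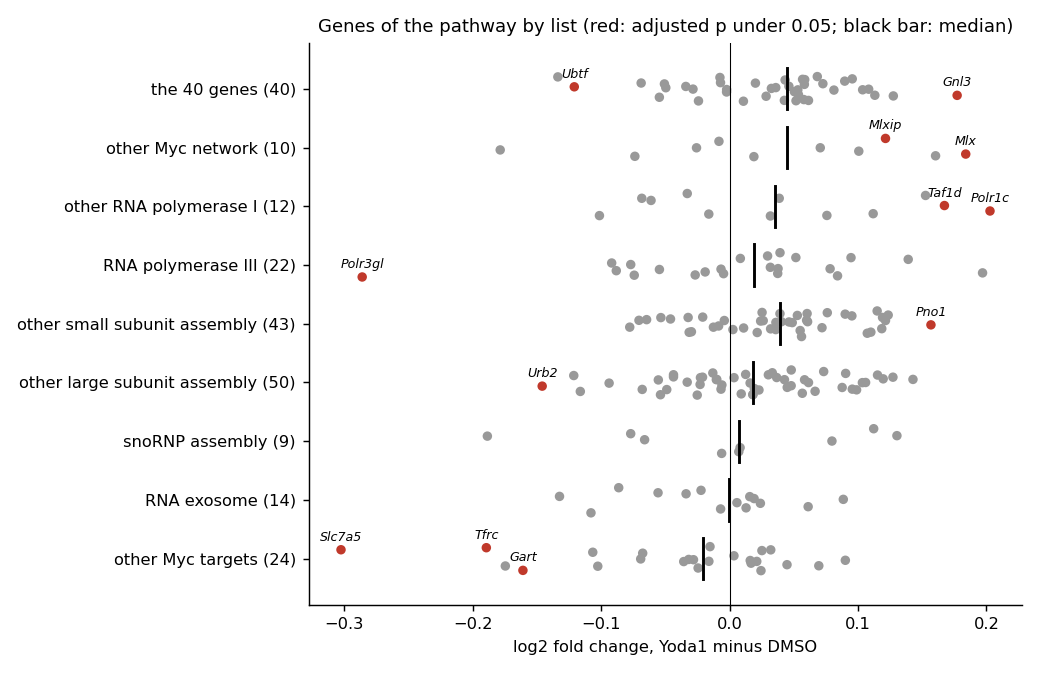
Log2 fold change of each gene, Yoda1 minus DMSO, for the 40 members and for the 8 lists of other pathway genes, with the number tested in brackets, called genes in red and the median as a black bar. Medians lie between -0.020 (other Myc targets) and 0.045 (the 40 genes and the other Myc network), and Slc7a5 lies lowest at -0.30.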

How the data were processed

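Poly(A)-selected RNA of 4 Yoda1 and 4 DMSO cultures was sequenced from libraries made with a directional kit. For each sample the authors deposited raw counts, the whole number of reads on each gene symbol, without normalization. Of tools, the methods of the paper list Cufflinks, BBMap, FASTX Trimmer and FastQC, with Cuffdiff and a gene set tool for the authors' own comparisons, which were not used, and the submitters' processing notes name TopHat and build mm10. Versions of the aligner and the counter, the gene annotation and how the counting treated strand are not given in the sources used here. Counts without molecular identifiers carry PCR duplicates, so SEs rest on the spread between libraries. Exons of 12 members overlap a gene on the other strand and 12 members have matching pseudogene transcripts, none of which was listed in the count tables. Such counts are uncertain.

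Genes were filtered with filterByExpr (minimum count 10, minimum total 15), scaled with TMM and compared in R 4.3.3 with edgeR 4.0.16 (robust quasi-likelihood, Benjamini-Hochberg over all 12239 genes). The SE is the absolute log2 fold change over the root of F. Library deviations used log2 CPM with a prior count of 2. Positions and transcript lengths (median of the basic transcripts) came from GENCODE M21, promoters from RefSeq. The script was tested on simulated data. The members and lists were chosen with earlier results of these data known. Every member may be named, and of each other list the called genes. The alternatives were DESeq2 1.42.0, limma-voom 3.58.1, RLE factors, upper-quartile factors, library size alone, 3 filters on low counts, the replicate number as a block, each library left out in turn and, added later, 2 libraries left out together, which makes 18.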

Additional observations from a re-analysis of the deposited data

Results flagged for a closer look

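In 3 of 80 groups of 4 values (40 members in 2 conditions) 1 library lay apart from the other 3 by Dixon's criterion at the 95% level, which chance alone gives about 1 time in 20, or 4 groups. Nop10 was 24.76 CPM in DMSO library 4, where the next value was 29.92. Wdr43 was 185.5 CPM in Yoda1 library 4, where the next was 171, and its log2 fold change of 0.011 became -0.023 without that library. Noc3l was 60.23 CPM in DMSO library 3, where the next was 56.84, and its log2 fold change of -0.0075 became 0.016 without that library. None of the 3 genes was called in any of the alternatives.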

How the results depend on the processing

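The 18 alternatives gave 720 values of members, of which 670 kept their direction and their side of the threshold, and 27 of the 40 members kept both throughout. The number of members called was 2 and became 1 with the replicate block and 1 to 3 with 1 library left out (1 without DMSO library 2, Yoda1 library 1 or Yoda1 library 4). Members called higher numbered 2 with DESeq2, with no filter on low counts and with DMSO library 1 and Yoda1 library 3 both left out, and 1 to 2 with 1 library left out. Members called lower numbered 2 with upper-quartile factors and with library size alone, 0 with the replicate block (Ubtf, adjusted p = 0.0576) and 0 to 1 with 1 library left out. The median log2 fold change of the members was 0.014 with upper-quartile factors, under which that of all genes was -0.036, and 0.027 to 0.049 with 1 library left out, lowest without Yoda1 library 3. Other pathway genes called, 10 in the main comparison, numbered 6 with the replicate block, 16 with both libraries left out and 4 to 17 with 1 library left out. Deviations of same-numbered samples correlated at 0.048, 0.071, -0.028 and 0.00023, and only number 2 correlated best with its own. Such correlations among 4 libraries per group cannot show whether cultures were matched by number, which is not stated. The block called 966 genes in place of 1331. Upper-quartile factors gave 505 genes up and 958 down and library size alone 553 and 809, in place of 739 and 592.

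Directions turned in 9 members, none of them called. With upper-quartile factors Fbl was -0.0025, Nop14 -0.010 and Wdr43 -0.020. With library size alone Nop14 was -0.0014 and Wdr43 -0.011. With DESeq2 Gar1 was 0.00065, Nop2 0.0014 and Rrs1 0.0016, and with the block Gar1 was 1.4e-06 and Rrs1 0.0014. Without both libraries Mycn was -0.039, Fbl -0.010, Gar1 0.010, Bysl 0.0078, Nop2 0.024 and Rrs1 0.037. With 1 library left out in turn, log2 fold changes ran for Mycn from -0.03 to 0.16, for Fbl from -0.025 to 0.078, for Gar1 from -0.055 to 0.058, for Nop14 from -0.0055 to 0.044, for Wdr43 from -0.024 to 0.026, for Bysl from -0.071 to 0.025, for Nop2 from -0.023 to 0.0199, for Rrs1 from -0.033 to 0.054 and for Noc3l from -0.022 to 0.016. The cause of these turns was not tested.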
